A study of Sus scrofa with 12 samples.

Results

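The endometrium of sows fed a high-fiber diet without N-carbamylglutamate (H − N) was compared with that of sows fed a low-fiber diet without it (L − N), which was the basal control of the feeding trial. These groups hold 6 of the 12 RNA-seq libraries of the series, 3 libraries each, and were chosen by their deposited titles, not by any measured value. The sows were Landrace × Yorkshire crosses fed over the whole of gestation, for 114 days, after which the endometrium was collected. The L − N diet held 3.73% crude fiber and the H − N diet 7.46%, reached by replacing part of the corn with soybean bran and beet pulp, so that fiber content and feed ingredients changed together. Neither group received N-carbamylglutamate (NCG, an analog that activates the first enzyme of the urea cycle). The remaining 6 libraries came from the same diets with 0.05% NCG (L + N and H + N, 3 libraries each), and were used here for the estimate of spread and for the fiber comparison with NCG. The labels do not say whether each library came from a different sow, so the p-values measure the spread between these libraries. The question was which endometrial genes, among the 20674 genes of the deposited table and its KEGG pathway and Gene Ontology biological process (BP) annotations, differed between the fiber levels.

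The endometrium is the lining of the uterus. It holds a luminal and glandular epithelium, which secretes the fluid that nourishes the conceptus, a stroma of fibroblasts in a collagen matrix, vessels, and resident immune cells, among which macrophages are abundant. Macrophages take up cell debris and matrix fragments and digest them in lysosomes, acidic compartments filled with proteases, glycosidases and lipid-degrading enzymes. Dietary fiber is fermented by gut microbes to short-chain fatty acids, and it also binds bile acids and so affects whole-body cholesterol.

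The deposited read counts summed to between 14369781 and 18549636 per library in these 6 libraries. The libraries differed by more than counting error within a group, with a chi-square per gene between replicates of 24.2 to 103 where counting error alone would give a value near 1. The first principal component of log2 CPM, the read counts scaled to a common library total, held 42.7% of the variance and placed the H − N libraries at 29.2 to 46.7 and L − N replicates 2 and 3 at -61.8 and -52.4. L − N replicate 1 lay between the groups, at 0.526. The second component, with 23.0% of the variance, set H − N replicate 3 apart, at -59.3 against -18.8 to 29.5 for the other 5 libraries. Values without one or the other of these libraries are given for some of the results below.

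**Figure D1:**
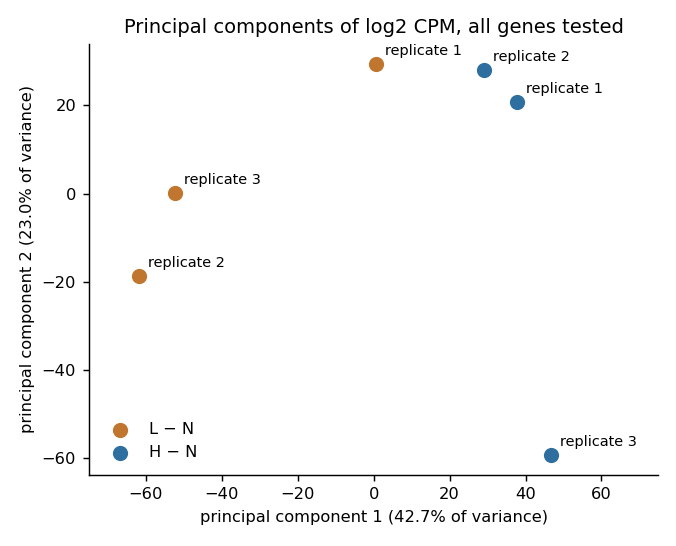
Principal components of the 6 libraries from log2 CPM of all genes tested; each point is 1 library, the x axis is component 1 (42.7% of the variance) and the y axis is component 2 (23.0%). L − N replicate 1 sits at 0.526 on component 1, between the other L − N libraries (-61.8 and -52.4) and the H − N libraries (29.2 to 46.7), and H − N replicate 3 sits apart at -59.3 on component 2.

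Of 17 macrophage markers 11 were lower in H − N, as were 19 of 119 genes of the lysosome and 11 of 64 of complement and coagulation, and 3 of 24 genes of cholesterol synthesis and uptake were higher. Single genes that rose included the anion exchanger SLC26A4, the secreted protein NELL1 and the progenitor cell receptor LGR5, and those that fell included the stromal genes CTHRC1 and RGS5. Of 15351 genes tested, 446 (2.91%) differed in expression, with a threshold of 0.05 on the adjusted p-value from edgeR's quasi-likelihood fit and of 1 on the absolute log2 fold change. An unadjusted p-value under 0.05 by edgeR was found for 3746 of the 15351 genes, against which such counts for the lists below are to be read. More genes were lower in H − N, with 309 (2.01%) lower and 137 (0.892%) higher, and the median log2 fold change over all genes was 0.031. The lower genes had a median log2 fold change of -1.49 and 68 of them fell by more than 4-fold. The higher genes had a median of 1.66, and 54 of them rose by more than 4-fold. The lower genes took 4.75%, 8.83% and 8.47% of all counts in the L − N libraries and 2.34%, 2.96% and 2.34% in the H − N libraries. The higher genes took 0.393%, 0.279% and 0.266% in L − N and 0.953%, 0.822% and 0.840% in H − N. In 430 of the 446 genes no L − N library overlapped an H − N library, a pattern found in 25.4% of all genes tested. Of the 446 genes, 67 overlap a gene on the opposite strand, and the strand used for counting is not given in the sources used here. In what follows, values after ± are standard errors of the log2 fold change, with 3 libraries in each group. They were computed as the absolute log2 fold change over the square root of edgeR's F statistic, whose spread came from all 12 libraries. The adjusted p-values are those of edgeR.

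The calls rested on a small number of libraries. L − N replicate 1 was the L − N library nearest to H − N in 272 of the 309 lower genes and in 86 of the 137 higher genes, and without it 1120 genes passed (7.19% of 15574 tested, with 441 or 2.83% higher and 679 or 4.36% lower), 423 of the 446 among them. Without H − N replicate 1 no gene passed by edgeR (smallest adjusted p = 0.0529, with 3339 genes at an unadjusted p-value under 0.05), without H − N replicate 2 or 3 the count was 165 or 159, and without L − N replicate 2 or 3 it was 122 or 6. The direction was kept in every one of these 6 fits for all 446 genes. In 430 of them the groups did not overlap, so leaving out 1 library could hardly reverse it. None passed in all 6 fits, and 5 genes (CTHRC1, NBL1, VIM, RGS5 and FAM129A) passed in 5. Fitted on the 6 libraries alone, edgeR found 3 genes, RGS5, OLFML3 and SLA-2. The 435 of the 446 genes tested in that fit all had an unadjusted p-value under 0.05. DESeq2 found 913 genes (5.95%) on the 12 libraries, 442 of the 446 among them. The counts of genes in each list below carry the same limit, since no list can hold a gene when H − N replicate 1 is left out, or more than 6 when it is L − N replicate 3.

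**Figure D2:**
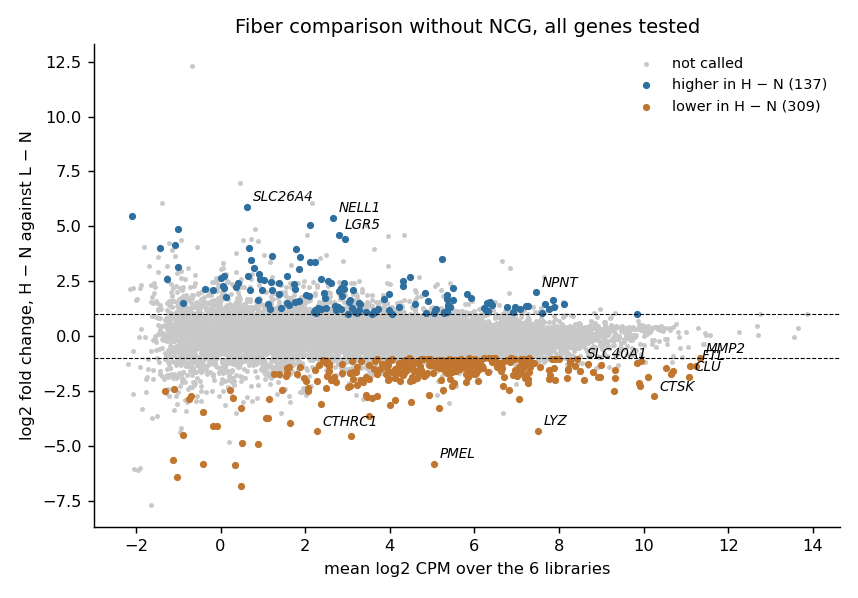
The y axis shows each gene's log2 fold change (H − N over L − N) and the x axis its mean log2 CPM over the 6 libraries, for all genes tested, with genes that passed in color and the fold threshold as dashed lines. The 309 lower genes include highly counted genes such as CTSK, CLU, FTL and MMP2, while most of the 137 higher genes have low to middle counts, with NPNT among the exceptions.

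Lysosomal enzymes formed a broad group of lower genes. Of the 119 genes tested in the KEGG pathway Lysosome, 19 fell and none rose, 98 had a negative log2 fold change and the median was -0.43, against 0.031 over all genes. The share of 16% compares with 2.91% over all genes. The median ranged from -0.55 to -0.33 when any single library was left out, whereas the count of lower genes was 31 without L − N replicate 1, 5, 3 and 3 when H − N replicate 2, H − N replicate 3 or L − N replicate 2 was omitted, and 0 without H − N replicate 1 or L − N replicate 3. Fewer cells rich in lysosomes and less lysosomal RNA per cell cannot be told apart in such bulk tissue.

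The lysosomal proteases had the lowest median of the lysosomal lists. Cathepsin K, a collagen-degrading protease (chr4:98389459-98404969 on Sscrofa11.1), was measured at 1437, 4528 and 4536 CPM in L − N and 282, 878 and 412 CPM in H − N. Every L − N library lay above every H − N library, and L − N replicate 1 was the lowest of its group (log2 fold change -2.74 ± 0.52 (SE), adjusted p = 0.0235). CTSB, a cathepsin of general protein breakdown (chr14:15014139-15035081), was measured at 1239.7, 4031 and 4071 CPM in L − N and 1014, 1066 and 758 CPM in H − N. Its groups came close, since L − N replicate 1 exceeded the highest H − N library by little (log2 fold change -1.72 ± 0.35 (SE), adjusted p = 0.0279; -2.10 without L − N replicate 1). CTSH, CTSZ, LGMN and CTSA also fell, with log2 fold changes of -1.87 ± 0.40, -1.95 ± 0.44, -1.65 ± 0.33 and -1.62 ± 0.33. LGMN is legumain, a protease that cleaves after asparagine, and CTSA protects lysosomal glycosidases as well as cleaving peptides. In all 6 of 18 lysosomal proteases fell, and the median was -0.87.

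Among lysosomal lipid enzymes and activators, 6 of 13 fell (median -0.74). NPC2, which carries cholesterol out of the lysosome, was measured at 376, 612 and 731 CPM in L − N and 129, 181 and 152 CPM in H − N. Its groups were clearly separate (log2 fold change -1.90 ± 0.25 (SE), adjusted p = 0.0162). ACP5 encodes uteroferrin, the iron-containing acid phosphatase that the pig endometrium secretes and that macrophages and osteoclasts also make (chr2:70206159-70209855), and was measured at 139, 469 and 441 CPM in L − N and 96.5, 76.4 and 63 CPM in H − N. The fall of ACP5 (log2 fold change -2.15 ± 0.39 (SE), adjusted p = 0.0214) was not shared by the list of 14 uterine secretory proteins, of which it was the only member to pass. Prosaposin, the precursor of the sphingolipid activator proteins, fell with a log2 fold change of -1.48 ± 0.26, and LIPA, the acid lipase that frees cholesterol from its esters, with -1.37 ± 0.32. LIPA overlaps IFIT genes on the opposite strand. PLD3 and PLA2G15 fell too (-1.54 and -1.39).

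Of 18 lysosomal glycosidases 4 fell, and all 18 had a negative value. They included GUSB (log2 fold change -1.82 ± 0.32 (SE), adjusted p = 0.0194) and HEXA (-1.04), which cleave glucuronic acid and hexosamine units from matrix sugars and sphingolipids. Among 17 membrane proteins, 3 fell, namely CD68, LAPTM5 and the cystine exporter CTNS (log2 fold change -1.46 ± 0.19 (SE), adjusted p = 0.0141). Of 9 sulfatases, ARSB fell (-1.01). None of the 21 subunits of the proton pump that acidifies lysosomes passed both thresholds by edgeR (14 at an unadjusted p-value under 0.05, 0 called by DESeq2), although the median was -0.46, with values such as -0.95 ± 0.22 for ATP6V1F and -0.90 ± 0.22 for ATP6V1A.

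**Figure D3:**
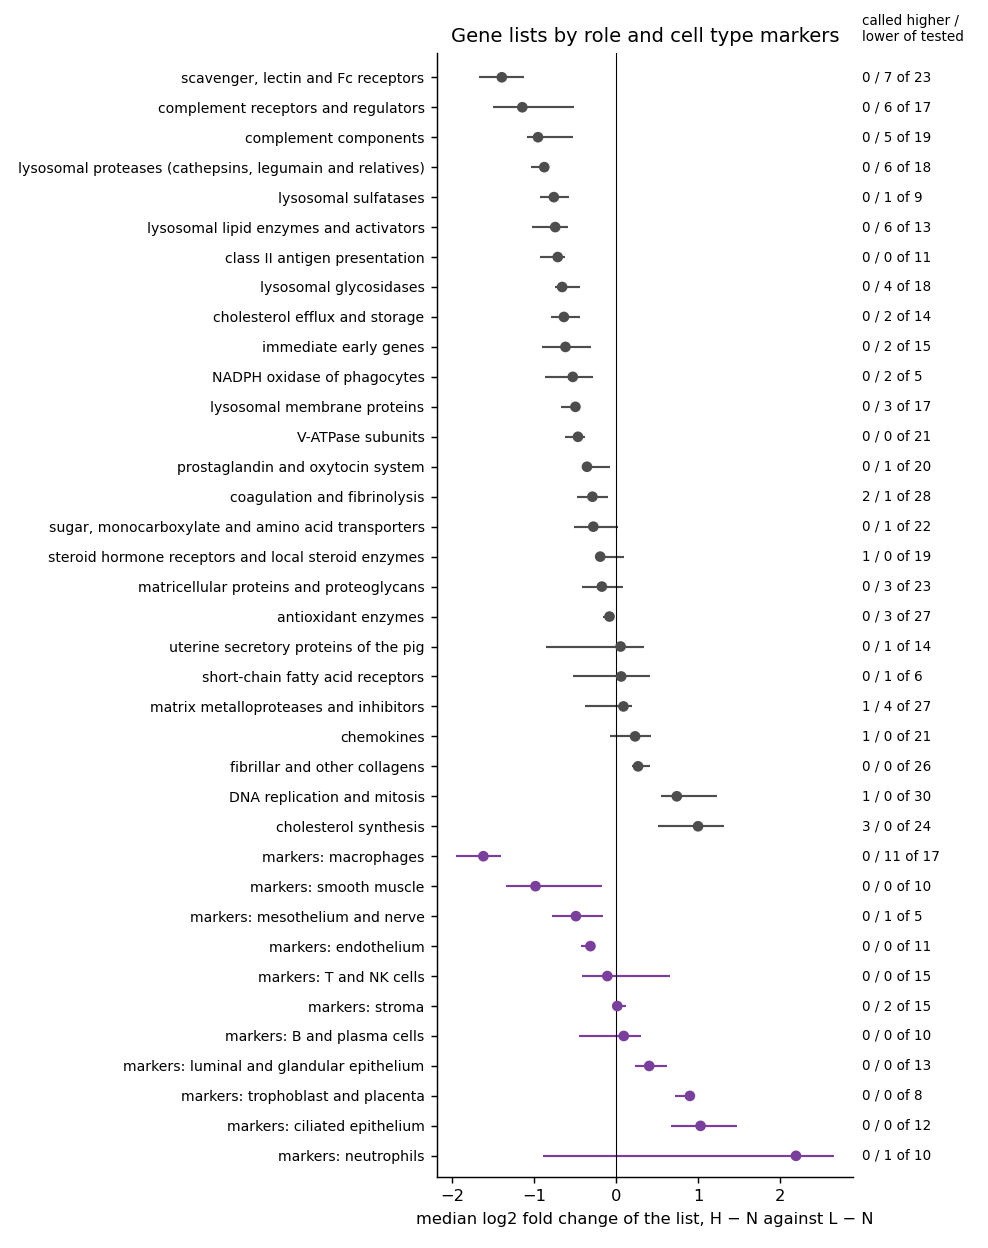
Median log2 fold change (H − N against L − N) of each list of genes by role (gray) and of each cell type marker list (purple) with at least 5 genes tested; points are medians, lines span the medians obtained when each of the 6 libraries is left out in turn, and the numbers at the right give genes higher, lower and tested. Scavenger receptors, complement receptors and macrophage markers have the lowest medians among lists whose line stays below 0, while cholesterol synthesis, replication and ciliated epithelium lie above 0, and the line of the neutrophil list crosses 0.

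Macrophage markers were lower in H − N. Of 17 such genes 11 fell, all 17 had a negative value and the median was -1.62 (-1.95 without L − N replicate 1). With L − N replicate 1 left out, 16 markers fell. Omission of any other library left few, with 2 lower markers when it was H − N replicate 2, 1 for H − N replicate 3 or L − N replicate 2, and 0 for H − N replicate 1 or L − N replicate 3. Their summed level was 1807, 6186 and 5177 CPM in L − N and 1194, 1283 and 885 CPM in H − N. L − N replicate 1 was thus near the H − N libraries, and L − N replicates 2 and 3 stood far above all of them. None of these markers was absent, since CD68, CD163 and CSF1R were measured in every library. CD163, the receptor for hemoglobin bound to haptoglobin (chr5:63300200-63334497), was measured at 186, 690.3 and 692 CPM in L − N and 142, 139 and 106 CPM in H − N (log2 fold change -2.02 ± 0.42 (SE), adjusted p = 0.0279), and CSF1R, the receptor for the growth factor on which macrophages depend, at 159.7, 326 and 381 CPM in L − N and 100.0, 111 and 64 CPM in H − N (log2 fold change -1.66 ± 0.31 (SE), adjusted p = 0.0225). CD68 was measured at 53.3, 222 and 185 CPM in L − N and 46.9, 66.9 and 36.1 CPM in H − N, and its groups overlapped through L − N replicate 1 (log2 fold change -1.62 ± 0.42 (SE), adjusted p = 0.0495). Whether the number of macrophages accounts for the lower lysosomal, phagosomal and complement genes was not tested. Of the differentially expressed genes of these pathways, the macrophage markers themselves made up 1 of 19 in Lysosome, 2 of 14 in Phagosome and 4 of 13 in Complement and coagulation cascades.

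LYZ, the gene of lysozyme, which cleaves bacterial cell walls (chr5:33612593-33618953), was measured at 164, 2045 and 797 CPM in L − N and 55, 47 and 50.004 CPM in H − N. The H − N libraries agreed closely, whereas the L − N libraries spanned a wide range, with replicate 2 the highest (log2 fold change -4.30 ± 1.0 (SE), adjusted p = 0.0359). Of 23 scavenger, lectin and Fc receptors 7 fell (median -1.39), and 14 did when L − N replicate 1 was left out, against 3 when it was H − N replicate 2 and 2 when it was H − N replicate 3 or L − N replicate 2. The lectin CD209 was measured at 72.8, 77.1 and 102 CPM in L − N and 9.33, 23.5 and 6.07 CPM in H − N (log2 fold change -2.70 ± 0.59 (SE), adjusted p = 0.0317). For CD209, L − N replicate 1 lay near the other L − N libraries. CD14 and TLR2, receptors for bacterial lipopolysaccharide and lipoproteins, fell with log2 fold changes of -1.56 ± 0.26 and -1.66 ± 0.32, STAB1 with -1.43 ± 0.21, FCGR3A with -1.43 ± 0.37 and COLEC12 with -1.31 ± 0.34.

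In the KEGG pathway Phagosome 14 of 127 genes fell and none rose (median -0.38, range over left-out libraries -0.50 to -0.31), a share of 11% against 2.91% over all genes. Omission of L − N replicate 1 gave 26 lower and 2 higher genes of this pathway, that of H − N replicate 2 or 3 gave 4 or 3 lower, and that of L − N replicate 2 gave 2. The 14 genes included the integrins ITGAM (log2 fold change -2.27 ± 0.53 (SE), adjusted p = 0.0372) and ITGB3 (-1.88) and the catalytic subunit of the phagocyte NADPH oxidase, named GP91-PHOX in the table and known as CYBB. GP91-PHOX, which makes superoxide, was measured at 41.6, 87.2 and 100.1 CPM in L − N and 17.1, 25.7 and 15 CPM in H − N, without overlap (log2 fold change -1.99 ± 0.35 (SE), adjusted p = 0.0194). Its cytosolic partner NCF4 fell with a log2 fold change of -1.66 ± 0.31, and NOX4, a related oxidase of non-immune cells, was measured at 50.7, 54.1 and 51.8 CPM in L − N and 11.5, 18.9 and 14.8 CPM in H − N (log2 fold change -1.80 ± 0.26 (SE), adjusted p = 0.0162). In the BP term superoxide anion generation 3 of 11 genes fell. None of 11 genes of class II antigen presentation passed by edgeR (8 at an unadjusted p-value under 0.05, 2 called by DESeq2), with a median of -0.71 and all 11 values negative.

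**Figure D4:**
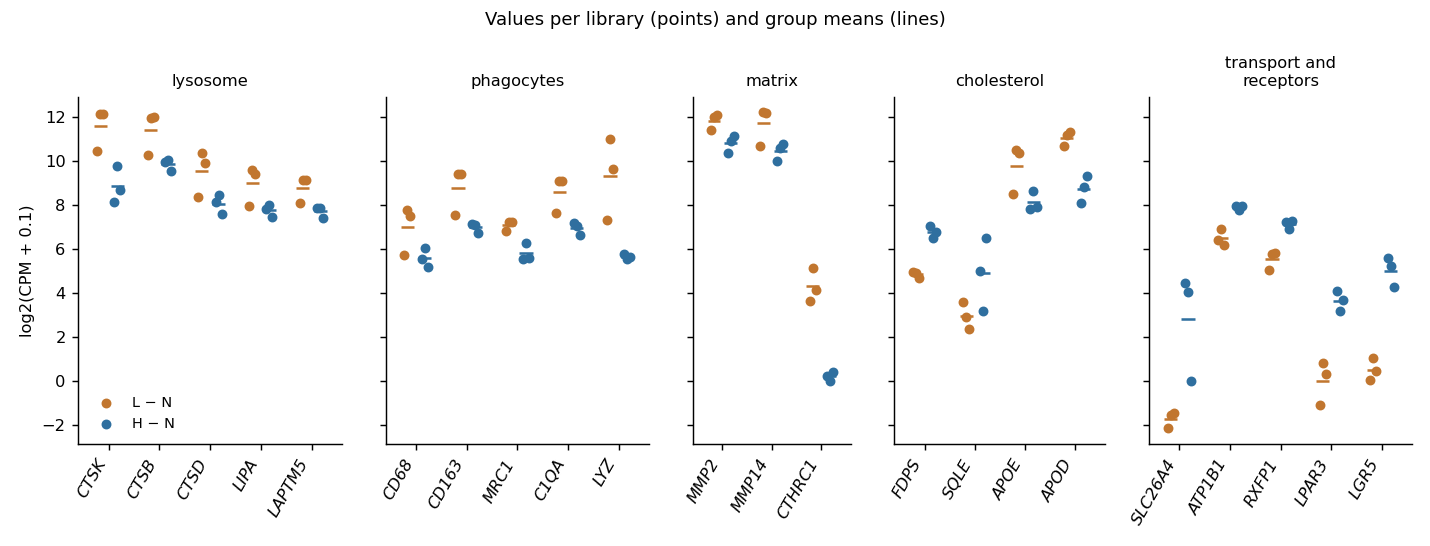
Log2(CPM + 0.1) of 22 genes in each of the 6 libraries (points) with the group means (lines), arranged by function; L − N is in orange and H − N in blue. In the lysosomal and phagocyte genes 1 L − N library, replicate 1, lies close to the H − N libraries, and in ATP1B1, LGR5 and LPAR3 the groups are apart.

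Complement genes fell together with their receptors. In the KEGG pathway Complement and coagulation cascades 11 of 64 genes fell and 2 rose (20.3% against 2.91% over all genes). C1QA, a chain of the recognition molecule of the classical pathway (chr6:80586259-80589213), was measured at 198, 544 and 542 CPM in L − N and 148, 133 and 100.3 CPM in H − N. All L − N libraries were above all H − N libraries (log2 fold change -1.75 ± 0.33 (SE), adjusted p = 0.0229). The other chains, C1QB and C1QC, fell with log2 fold changes of -1.504 ± 0.30 and -1.59 ± 0.30, C2 with -1.51 ± 0.39 and factor D (CFD) with -1.18 ± 0.25. Of 17 receptors and regulators 6 fell, and the median was -1.14. VSIG4, a receptor for C3 fragments, fell with a log2 fold change of -2.26 ± 0.46, the anaphylatoxin receptors C3AR1 and C5AR1 with -1.84 ± 0.41 and -1.48 ± 0.38, and the integrin chain ITGB2 with -1.19 ± 0.28. Clusterin (CLU), a secreted chaperone and complement inhibitor that epithelium also makes, was measured at 2557, 7041 and 3353 CPM in L − N and 1381, 932 and 1288 CPM in H − N (log2 fold change -1.85 ± 0.44 (SE), adjusted p = 0.0379). The pathway's higher genes were the serine protease inhibitor SERPINA5, with 1, 1 and 0 counts in L − N and 37, 15 and 22 in H − N, and F2RL2, a thrombin receptor (log2 fold change 1.05 ± 0.24 (SE), adjusted p = 0.0332). SERPINA5 was at or below 3 counts in each L − N library, so no fold is given for it. Without L − N replicate 2 no gene of this pathway fell and 1 rose, and without H − N replicate 2 or 3 a single gene fell.

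Several other immune lists held called genes at shares of 8.24% to 11.7%, beside 2.91% over all genes. Shares were lower in Chemokine signaling pathway (3 of 161, 1.86%) and Antigen processing and presentation (2 of 55, 3.64%). Cytokine-cytokine receptor interaction (11 of 195, 5.64%) and the BP term chemotaxis (5 of 64, 7.81%) also lay below that range. In the Toll-like receptor signaling pathway 7 of 85 genes fell (8.24%), including TLR7 (-1.77 ± 0.41), and in Leukocyte transendothelial migration 9 of 95 (9.47%). In the BP term inflammatory response 12 of 131 genes fell (9.16%), a count of 21 when L − N replicate 1 was left out and of 1 when it was L − N replicate 2. In innate immune response 7 fell and 1 rose of 91 (8.79%), and in immune system process 6 fell and 1 rose of 60 (11.7%), where the count of lower genes became 14 and 1 in the same 2 fits. Of 21 chemokines only CCL28, a mucosal chemokine of epithelium, passed, and it was higher (log2 fold change 1.70 ± 0.39 (SE), adjusted p = 0.0352). The bactericidal protein BPI was also higher, at 1.08, 0.941 and 0.806 CPM in L − N and 5.18, 7.77 and 2.76 CPM in H − N (log2 fold change 2.46 ± 0.48 (SE), adjusted p = 0.0241). Of the 15 immediate early genes, transcription factors that respond within minutes to stimulation, FOSB (log2 fold change -2.51 ± 0.42 (SE), adjusted p = 0.0192) and EGR1 (log2 fold change -1.15 ± 0.24 (SE), adjusted p = 0.0279) fell, while FOS had a value of -0.66 ± 0.61 that did not pass. CTSK, CD14, TLR2 and ITGAM recur in several of these annotations, so the lists are not independent of each other.

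Genes of cholesterol handling moved in opposite directions. Of 24 genes of cholesterol synthesis and uptake 3 rose, none fell and 23 had a positive value, with a median of 1.0 (range over left-out libraries 0.51 to 1.31). FDPS, the synthase of farnesyl diphosphate (chr4:94500140-94514820), was measured at 31.7, 30.2 and 25.9 CPM in L − N and 133, 91 and 109 CPM in H − N, with all H − N libraries above L − N (log2 fold change 1.92 ± 0.36 (SE), adjusted p = 0.023). SQLE, an enzyme of sterol synthesis, was measured at 12.1, 7.59 and 5.04 CPM in L − N and 32.3, 9.02 and 92.6 CPM in H − N and did not pass (log2 fold change 2.43 ± 0.85 (SE), adjusted p = 0.112). Without H − N replicate 1, or without either L − N replicate 2 or 3, no gene of this list passed.

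Of 14 genes of cholesterol efflux and storage 2 fell and 13 had a negative value (median -0.63). APOE, a lipoprotein component that carries cholesterol away from cells (chr6:51373113-51375333), was measured at 367, 1458 and 1332 CPM in L − N and 229, 399.5 and 246 CPM in H − N, with L − N replicate 1 within the range of H − N (log2 fold change -1.85 ± 0.42 (SE), adjusted p = 0.0349). PLTP, which transfers phospholipids between lipoproteins, had a log2 fold change of -1.77 ± 0.45 and overlaps CTSA on the opposite strand. The sterol exporter ABCG1 (log2 fold change -0.99 ± 0.18 (SE), adjusted p = 0.0194) stayed just under the fold threshold. APOD, a lipid-binding apolipoprotein, was measured at 1645, 2307 and 2558 CPM in L − N and 272, 451 and 643 CPM in H − N, without overlap (log2 fold change -2.25 ± 0.38 (SE), adjusted p = 0.0192). CPT1B, which admits fatty acids to mitochondria, fell with a log2 fold change of -2.04 ± 0.45, the lipid-binding protein FABP5 with -1.03 ± 0.26 and the nuclear receptor PPARG with -1.09 ± 0.28, so that 4 of 57 genes of the PPAR signaling pathway fell (7.02% against 2.91% over all genes). Of 6 receptors that respond to short-chain fatty acids or other lipids PPARG was the only one to pass, and FFAR2 had a value of 0.59 ± 0.76.

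Genes of the stroma and its matrix included the differences with the smallest adjusted p-values. CTHRC1, a secreted protein of activated fibroblasts (chr4:33759541-33771625), was measured at 12.5, 35.9 and 17.5 CPM in L − N and 1.09, 0.902 and 1.24 CPM in H − N. The H − N libraries lay within a narrow range, far below all L − N libraries (log2 fold change -4.34 ± 0.43 (SE), adjusted p = 0.00796), and this difference held in 5 of the 6 fits that left a library out. RGS5, a regulator of G protein signaling in pericytes (chr4:87286953-87340816), was measured at 518, 517 and 483 CPM in L − N and 177, 169.6 and 182 CPM in H − N, with little spread within either group (log2 fold change -1.52 ± 0.16 (SE), adjusted p = 0.00796). NBL1, a secreted antagonist of bone morphogenetic proteins (chr6:78046084-78071609), was measured at 212, 358 and 352 CPM in L − N and 75.6, 85.5 and 73.2 CPM in H − N (log2 fold change -1.97 ± 0.22 (SE), adjusted p = 0.00796). VIM, the gene of vimentin, the intermediate filament of mesenchymal cells (chr10:43516441-43526172), was measured at 3725, 2732 and 2269 CPM in L − N and 934, 1058 and 862 CPM in H − N, and here L − N replicate 1 was the highest library (log2 fold change -1.61 ± 0.19 (SE), adjusted p = 0.0118). The transcription factor MAFF and the autophagy regulator TP53INP2 fell with log2 fold changes of -1.90 ± 0.23 and -1.68 ± 0.21.

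Among 27 matrix proteases and their inhibitors 4 fell and 1 rose, while 16 had a positive value and the median was 0.090. MMP2, a gelatinase (chr6:30059247-30087031), was measured at 2732, 4183 and 4346 CPM in L − N and 1336, 1954 and 2306 CPM in H − N (log2 fold change -1.01 ± 0.25 (SE), adjusted p = 0.0432). MMP14, the membrane protease that activates MMP2 (chr7:76174502-76185931), was measured at 1682, 4769.6 and 4757 CPM in L − N and 1031, 1578 and 1756 CPM in H − N, with overlap through L − N replicate 1 (log2 fold change -1.36 ± 0.34 (SE), adjusted p = 0.045). The inhibitor TIMP2 fell with a log2 fold change of -1.24 ± 0.29, the aggrecan-cleaving protease ADAMTS5 fell with a log2 fold change of -1.31 ± 0.30, and ADAMTS9 rose by 1.26 ± 0.29. Of 23 matricellular proteins and proteoglycans, CTHRC1, thrombospondin 1 (THBS1, -1.86 ± 0.45) and fibulin 2 (FBLN2, -1.44 ± 0.25) fell. CCDC80 and PAMR1, secreted by fibroblasts, fell with log2 fold changes of -1.90 ± 0.44 and -2.85 ± 0.41. None of 26 collagen genes passed by edgeR (11 at an unadjusted p-value under 0.05, 2 called by DESeq2), with 16 positive values. COL1A1 was measured at 5275, 4742 and 4852 CPM in L − N and 7314, 7917 and 14849 CPM in H − N. All H − N libraries were above all L − N libraries, but H − N replicate 3 was far above the other two (log2 fold change 1.02 ± 0.39 (SE), adjusted p = 0.137). Of 15 stromal markers VIM and THY1 (-1.14 ± 0.29) fell, whereas PDGFRA and PDGFRB had values of 0.015 ± 0.29 and -0.21 ± 0.28.

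The largest falls concerned genes with low levels in H − N. DEFB115, a beta-defensin, was measured at 1.91, 32.9 and 10.1 CPM in L − N and 0.207, 0.139 and 0 CPM in H − N (log2 fold change -6.85 ± 1.49 (SE), adjusted p = 0.0309), and a neighbor on chromosome 17, DEFB128, fell with a log2 fold change of -3.75 ± 0.72. KCNJ1, an inwardly rectifying potassium channel, was measured at 10.3, 134 and 21.2 CPM in L − N and 3.37, 2.01 and 1.52 CPM in H − N, with L − N replicate 2 far above the others (log2 fold change -4.56 ± 1.03 (SE), adjusted p = 0.0342). PMEL, the fibril protein of pigment granules (chr5:21355611-21365609), was measured at 24, 659 and 663 CPM in L − N and 0.984, 16.4 and 6.76 CPM in H − N. L − N replicate 1 was much nearer to H − N than to its own group (log2 fold change -5.82 ± 1.22 (SE), adjusted p = 0.0284), and the gene overlaps DGKA on the opposite strand. The neuropeptide precursor gene VGF (-4.93) showed the same arrangement, and C1H14orf105 fell with a log2 fold change of -4.12 ± 0.94. MYH2, TGM5, GRM4 and HSPB3 were at or below 3 counts in every H − N library. MYH2, a fast myosin of skeletal muscle, had 5, 60 and 46 counts in L − N and 1, 0 and 0 in H − N, and TGM5, a transglutaminase, had 17, 89 and 79 counts in L − N and 0, 3 and 0 in H − N. GRM4 had 14, 27 and 26 counts in L − N and 0, 0 and 1 in H − N, and HSPB3, a small heat shock protein of muscle, had 22, 24 and 27 counts in L − N and 2, 1 and 0 in H − N.

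Of the genes that rose, several encode secreted or membrane proteins of epithelium. SLC26A4, the anion exchanger pendrin (chr9:107365121-107431065), was measured at 0.127, 0.251 and 0.269 CPM in L − N and 22, 16.6 and 0.897 CPM in H − N. H − N replicate 3 remained near the L − N level while the other H − N libraries were far above it (log2 fold change 5.89 ± 1.31 (SE), adjusted p = 0.0326). NELL1, a secreted protein with epidermal growth factor repeats (chr2:37809080-38754520), was measured at 0.891, 0.564 and 1.61 CPM in L − N and 72.3, 35.4 and 21 CPM in H − N, a difference without overlap (log2 fold change 5.39 ± 0.80 (SE), adjusted p = 0.0162). Its paralog NELL2 (chr5:75505092-75837324) was measured at 17.6, 14.6 and 8.06 CPM in L − N and 249.9, 173 and 31.4 CPM in H − N (log2 fold change 3.50 ± 0.61 (SE), adjusted p = 0.0194). LGR5, the R-spondin receptor that marks epithelial progenitor cells (chr5:35463257-35595234), was measured at 0.955, 2.01 and 1.28 CPM in L − N and 48.1, 37.3 and 19.2 CPM in H − N (log2 fold change 4.62 ± 0.76 (SE), adjusted p = 0.0186). TSPAN8, which overlaps LGR5 on the opposite strand, was measured at 0.382, 0.815 and 0.470 CPM in L − N and 4.92, 3.05 and 3.38 CPM in H − N, so reads of these neighbors cannot be told apart if counting ignored strand. LPAR3, a lysophosphatidic acid receptor of the uterine epithelium known for its part in embryo spacing (chr6:128860210-128937769), was measured at 0.382, 1.69 and 1.14 CPM in L − N and 17.2, 8.95 and 12.9 CPM in H − N. Its H − N libraries all lay above L − N (log2 fold change 3.59 ± 0.78 (SE), adjusted p = 0.0312).

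Among hormone receptors the relaxin receptor rose. RXFP1, which encodes it, was measured at 33.7, 55.9 and 57.2 CPM in L − N and 149.6, 121 and 156 CPM in H − N (log2 fold change 1.54 ± 0.36 (SE), adjusted p = 0.0384). ESR1, the estrogen receptor alpha, was measured at 523, 417 and 409.8 CPM in L − N and 939, 926 and 567 CPM in H − N. Its adjusted p-value passed and its fold did not (log2 fold change 0.85 ± 0.22 (SE), adjusted p = 0.0473). PGR, the progesterone receptor, did not pass (log2 fold change 0.63 ± 0.32 (SE), adjusted p = 0.254). Of 19 steroid receptors and local steroid enzymes 1 passed both thresholds, and the median was -0.19 (0.095 without L − N replicate 1). In the prostaglandin, oxytocin and endothelin list the endothelin receptor EDNRB fell (log2 fold change -1.15 ± 0.27 (SE), adjusted p = 0.0369), 1 of 20 genes. EDN1, its ligand, was measured at 40.5, 41.8 and 42.5 CPM in L − N and 23.2, 22.4 and 21.6 CPM in H − N, a separation with little spread that stayed under the fold threshold (log2 fold change -0.89 ± 0.16 (SE), adjusted p = 0.0194).

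Membrane and cytoskeletal genes were also among the higher genes. ATP1B1, the beta subunit of the sodium pump (chr4:81912543-81937015), was measured at 86.6, 123 and 72.7 CPM in L − N and 251, 221 and 253 CPM in H − N, and its groups did not overlap (log2 fold change 1.36 ± 0.24 (SE), adjusted p = 0.0199). NPNT, a ligand of integrin alpha 8 in basement membranes (chr8:115768963-115861170), was measured at 196, 44.1 and 54.5 CPM in L − N and 346, 425 and 412 CPM in H − N, and L − N replicate 1 was nearer to H − N than the other L − N libraries were (log2 fold change 2.01 ± 0.46 (SE), adjusted p = 0.0349; 3.0 without it). PLS1, an actin-bundling protein of microvilli, rose by 1.45 ± 0.29, the adaptor SH3BGRL2 by 1.23 ± 0.18 and the interferon-inducible gene ISG12(A) by 1.66 ± 0.35. The lactonase PON3 (3.98), ANKRD55 (3.64), CA8 (3.45), LGI2 (3.39), PALM3 (2.42) and ARID3C (2.25) rose as well, and NME7, a kinase of the centrosome and cilia, rose by 1.33 ± 0.20. CCNO, a regulator of multiciliated cells, had 0, 0 and 3 counts in L − N and 15, 19 and 25 in H − N, and FA2H, a fatty acid hydroxylase, had 2, 1 and 3 counts in L − N and 10, 6 and 40 in H − N.

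Markers of ciliated epithelium had positive values without passing by edgeR (5 at an unadjusted p-value under 0.05, 1 called by DESeq2). All 12 were above 0, with a median of 1.03 (1.48 without L − N replicate 1), and their summed level was 332, 94.6 and 205 CPM in L − N and 317, 350.0 and 568 CPM in H − N, so that L − N replicate 1 lay within the H − N range. In the BP term cilium movement all 26 genes were positive and 1 passed. Of 13 markers of luminal and glandular epithelium none passed, although CDH1, E-cadherin, passed on the adjusted p-value alone (log2 fold change 0.83 ± 0.17 (SE), adjusted p = 0.0279), 5 had an unadjusted p-value under 0.05 and DESeq2 called 0. Of 30 genes of replication and mitosis 29 were positive (median 0.74), and 1, the mitotic topoisomerase TOP2A, rose (log2 fold change 1.62 ± 0.38 (SE), adjusted p = 0.0372). With L − N replicate 2 left out 14 of them rose, whereas omission of L − N replicate 1 gave 1 and that of any other library none, and the median ranged from 0.55 to 1.23 over left-out libraries. The proliferation marker MKI67 was measured at 30.8, 58.2 and 18.4 CPM in L − N and 60.4, 60.1 and 76.7 CPM in H − N and did not pass (log2 fold change 0.88 ± 0.34 (SE), adjusted p = 0.142).

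Of 27 antioxidant enzymes 3 fell. HMOX1, the heme-degrading enzyme that macrophages use for iron recycling, was measured at 52.5, 128 and 81.6 CPM in L − N and 21.9, 22.1 and 23 CPM in H − N (log2 fold change -1.97 ± 0.35 (SE), adjusted p = 0.0196). GPX3, the secreted glutathione peroxidase, fell with a log2 fold change of -2.06 ± 0.54, and SRXN1, which repairs peroxiredoxins, with -1.07 ± 0.23. The superoxide dismutase genes and catalase did not pass. SOD1 was measured at 69.1, 72.5 and 57.5 CPM in L − N and 55.8, 64.8 and 58.3 CPM in H − N (log2 fold change -0.15 ± 0.12 (SE), adjusted p = 0.448), SOD2 had a value of 0.47 ± 0.31 and CAT one of -0.48 ± 0.19. The value of SOD2 rests on H − N replicate 3, the highest library, without which its value was -0.15. In Glutathione metabolism 3 of 45 genes fell (ANPEP, GPX3 and GGT1) and GSTA1 rose, at 1.66, 0.314 and 0.269 CPM in L − N and 4.25, 7.70 and 4.28 CPM in H − N. These made up 8.89% of the pathway, beside 2.91% over all genes. FTL, the ferritin light chain that stores iron, was measured at 2139.7, 5281 and 4715 CPM in L − N and 1468, 2172 and 1146 CPM in H − N, with L − N replicate 1 below the highest H − N library (log2 fold change -1.34 ± 0.35 (SE), adjusted p = 0.0485), and the iron reductase CYBRD1 fell with a log2 fold change of -1.05 ± 0.17. In the pathway Mineral absorption 2 of 43 genes rose and 3 fell (11.6% against 2.91% over all genes).

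No differentially expressed gene was found in 6 pathways of energy metabolism and protein synthesis, while Fatty acid degradation held 1 of 35, CPT1B. None of 123 genes of Oxidative phosphorylation, 50 of Glycolysis, 29 of the Citrate cycle, 20 of Butanoate metabolism, 153 of Protein processing in endoplasmic reticulum or 120 of Ribosome passed both thresholds by edgeR. The median of the ribosomal genes was 0.29, with 98 positive values, and that of the oxidative phosphorylation genes -0.036. Of the 485 different genes in these 6 pathways 87 had an unadjusted p-value under 0.05 by edgeR and 7 an adjusted one under 0.05. DESeq2 called 6. Over all 15351 genes tested, 3746 had such an unadjusted p-value by edgeR and 809 such an adjusted one. In larger signaling pathways the genes were divided, with 7 higher and 7 lower of 289 in PI3K-Akt, 6 higher and 6 lower of 262 in MAPK, 1 and 3 of 142 in Wnt, and 1 and 4 of 118 in Cell cycle. These made up 4.84%, 4.58%, 2.82% and 4.24% of the pathways, beside 2.91% over all genes. In p53 signaling 4 of 67 fell (5.97%), among them GADD45A (-1.43 ± 0.30), SESN1 (-1.01 ± 0.21) and CD82 (-1.06 ± 0.27). Without L − N replicate 2 that pathway held 3 higher and 0 lower genes, while omission of any other library gave no higher gene. Of 22 sugar, monocarboxylate and amino acid transporters SLC7A7 fell (-1.15 ± 0.20).

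Over the whole annotation, 209 of the 446 genes carried a KEGG pathway and 345 a BP term. Of 291 pathways with at least 20 genes tested, 80 held at least 5 differentially expressed genes. The highest shares were in Staphylococcus aureus infection (20.8%), Complement and coagulation cascades (20.3%), Lysosome (16%), Pertussis (15.4%), Leishmaniasis (14.8%), Malaria (13.6%) and Cholesterol metabolism (12.8%). The 12 pathways with the highest shares held 67 different genes, of which 43 were in 1 of the 12 pathways and 4 in at least 5. The 4 were ITGB2, in 7 of the 12, FCGR3A and ITGAM in 6 each and IL10 in 5. Among BP terms the highest shares were in lipopolysaccharide-mediated signaling (18.5%), negative regulation of MAP kinase activity (18.5%), negative regulation of interleukin-6 production (17.1%) and phagocytosis (16.7%).

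Markers of other cell types were measured beside these groups. Smooth muscle markers summed to 6420.3, 2015 and 2555 CPM in L − N and 1184, 2064 and 2045 CPM in H − N, so that L − N replicate 1 held far more than any other library. Their median of -0.98 became -0.17 without that library, and none of 10 passed by edgeR (5 at an unadjusted p-value under 0.05, 2 called by DESeq2). Erythroid genes summed to 756, 63.8 and 516 CPM in L − N and 33, 56.6 and 33 CPM in H − N, high in L − N replicates 1 and 3, and none of 4 passed by edgeR (4 at an unadjusted p-value under 0.05, 2 called by DESeq2). HBB, a globin chain, was measured at 733, 61.4 and 499 CPM in L − N and 31.2, 53.9 and 30.6 CPM in H − N (log2 fold change -3.48 ± 0.93 (SE), adjusted p = 0.0525). Neutrophil markers summed to 135, 411 and 411 CPM in L − N and 137, 141 and 768 CPM in H − N, and the median of 2.19 became negative when H − N replicate 3 was left out, since the range over left-out libraries was -0.89 to 2.66. S100A9 was at 0.637, 3.39 and 1.34 CPM in L − N and 1.71, 0.208 and 53.7 CPM in H − N. The markers of endothelium (11 tested, median -0.31), T and NK cells (15, -0.11), B and plasma cells (10, 0.094) and mast cells (4, -0.59) included no gene that passed by edgeR (7 of 40 at an unadjusted p-value under 0.05, 4 called by DESeq2). Of the trophoblast list 8 genes were tested and none passed by edgeR (5 at an unadjusted p-value under 0.05, 2 called by DESeq2). Their median was 0.90 (range over left-out libraries 0.72 to 0.90), with 5 positive and 3 negative values. They summed to 206, 200 and 199 CPM in L − N and 336, 302 and 247 CPM in H − N. Of 5 mesothelial and nerve markers 1 fell. The part of these cell types in the differences was not tested.

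With NCG in both diets the fiber difference was nearer to 0, or of the other sign, for all 446 genes. No gene passed for H + N against L + N by edgeR, where 719 genes (4.68%) had an unadjusted p-value under 0.05 and DESeq2 found 2 genes, PTX3 and GPC2. This comparison shares no library with the one without NCG. For the 309 lower genes the median with NCG was -0.20 on the log2 scale, and 247 kept their direction. The 137 higher genes had a median of 0.10, and 81 kept their direction. CTSK changed by 0.011, CD163 by -0.13 and CTHRC1 by -1.12, against -2.74, -2.02 and -4.34 without NCG. The genes were chosen for their difference without NCG, so their values there are not independent of that choice.

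The difference between the fiber effects with and without NCG was tested as an interaction. No gene passed by edgeR (smallest adjusted p = 0.182), and DESeq2 found 184 genes. By edgeR 1967 genes (12.8%) had an unadjusted p-value under 0.05, 384 of the 446 among them. The interaction contains the difference without NCG for which the 446 genes were chosen. Their count of small p-values is therefore not independent of that choice. Without L − N replicate 1, 346 genes passed the edgeR interaction test, and without H − N replicate 3 a single gene, NELL2, did. The smallest interaction p-values among the 446 genes belonged to NBL1, MAFF, MYL9, C1QTNF5 and LOC100520329. NBL1 differed by 1.91 ± 0.30 between the settings, from -1.97 without NCG to -0.067 with it (adjusted p = 0.182).

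**Figure D5:**
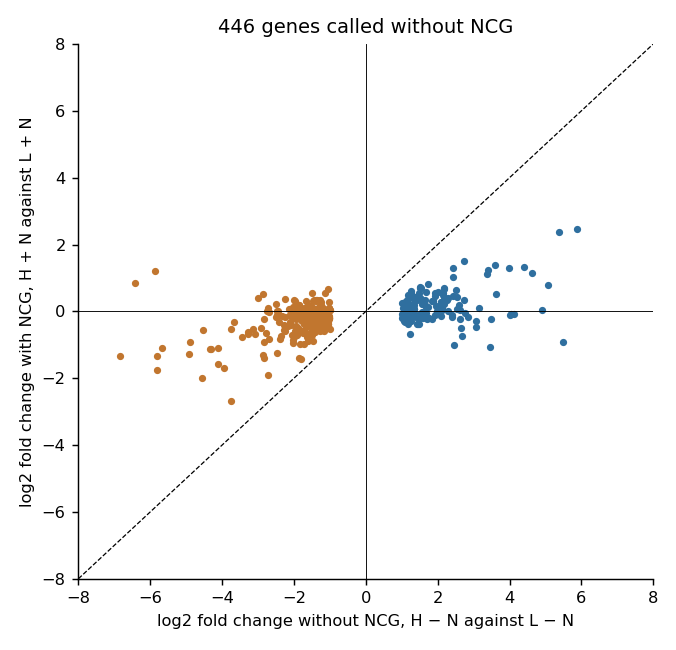
Log2 fold change of fiber with NCG (H + N against L + N, y axis) against that without NCG (H − N against L − N, x axis) for the 446 genes that passed without NCG; the dashed line marks equal values, and colors mark genes higher (blue) and lower (orange) in H − N. Points lie near the horizontal axis, with medians of 0.10 and -0.20 with NCG against 1.66 and -1.49 without it.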

How the data were processed

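Total RNA of endometrium was extracted with Trizol, and poly(A) RNA was sequenced in read pairs. The authors deposited 1 table of read counts and FPKM values, by gene and library, with coordinates on Sscrofa11.1. The submitters' processing notes name fastp 0.22.0, HISAT2 2.1.0 and HTSeq 0.9.1. The deposited counts are not normalized and were used for every test, and the FPKM values, which the authors scaled for gene length and library total, were only checked against the counts. All 20674 genes are in the RefSeq table of the same build, and 54 share a name with another gene.

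Libraries were grouped by title. In R 4.3.3 with edgeR 4.0.16, filterByExpr dropped weakly counted genes, TMM gave the scaling, and glmQLFit estimated 1 mean for each group from the 12 libraries (biological coefficient of variation 0.269, 8 residual degrees of freedom). H − N was tested against L − N, and p-values were adjusted by Benjamini-Hochberg over all 15351 genes. Genes passed at an adjusted p-value under 0.05 and an absolute log2 fold change above 1. DESeq2 1.42.0, other scalings and filters, the 6 libraries alone, a replicate block and the omission of each library were tried. In 3 simulated data sets with 200 genes changed by 2 on the log2 scale, edgeR found 79.0% with 6.33 false calls on average, and DESeq2 86.5% with 28.0. Simulated counts were drawn independently, and no library was set apart as L − N replicate 1 and H − N replicate 3 were. These rates may therefore not hold for the measured libraries.

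CPM values use the TMM factors. A gene was taken to be at the floor in a group with at most 3 counts in each library. Named genes were the 12 with the largest change in each direction among genes with a symbol, without overlap and with at least 1 CPM in the higher group, the 6 with the smallest adjusted p-value, the 6 with the highest CPM, the leading genes of lists with a raised share, defining markers, 10 preset genes and the 5 with the smallest interaction p-value. Other genes named with values were chosen after their values were seen. The lists, from the table's KEGG and BP terms and from general knowledge, were chosen with earlier results of these data known, and are described by counts and medians without a test. Promoter motifs were not analysed here, and some genes that these rules name are not reported here.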

Additional observations from a re-analysis of the deposited data

Results flagged for a closer look

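MYL9 and LOC100520329, named above for small interaction p-values, were flagged for opposite directions. In each setting their fiber groups did not overlap, and the direction with NCG was opposite to that without it. MYL9, a regulatory light chain of myosin in contractile cells, was measured at 363, 305 and 278 CPM in L − N and 74.3, 143 and 135 CPM in H − N, a log2 fold change of -1.43 ± 0.21. With NCG it was measured at 114, 128 and 113 CPM in L + N and 150.1, 167 and 136 CPM in H + N, a log2 fold change of 0.35. The difference between these values was 1.78 ± 0.30 and did not pass over all genes in edgeR's interaction test (adjusted p = 0.182). LOC100520329 was measured at 87.2, 57.1 and 57.4 CPM in L − N and 30.7, 30.9 and 29.5 CPM in H − N, and with NCG at 35.3, 32.5 and 31.5 CPM in L + N and 52.2, 56.5 and 37.7 CPM in H + N. Its log2 fold change was -1.15 without and 0.56 with NCG, a difference of 1.70 ± 0.26 (adjusted p = 0.182). In all, 12 of the 446 genes had such opposite, non-overlapping groups. The share of all genes tested with this pattern was not counted, so the 12 are not read as a raised number. L − N replicate 1, which held the highest sum of smooth muscle markers, was also the highest library for both genes. Those sums were 6420, 2015 and 2555 CPM in L − N and 1184, 2064 and 2045 CPM in H − N. Whether smooth muscle content accounts for these differences was not tested. Groups of 3 libraries are too small for a test of single outlying libraries.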

How the results depend on the processing

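The direction of the named genes depended little on the processing and the number of genes passing depended on it a great deal. Over 156 named genes and all alternatives, 2021 of 2022 values kept their direction. The exception was SOD2, at -0.15 without H − N replicate 3 and 0.71 without H − N replicate 2. Apart from preset genes, only named genes that passed were compared, so their directions had little room to reverse. In place of 446 genes (137 higher, 309 lower), DESeq2 gave 913 (345 and 568) on 12 libraries and 718 (254 and 464) on the 6 libraries, edgeR on the 6 libraries gave 3 (2 and 1), and the adjusted p-value alone gave 809 (240 and 569). RLE scaling, no filter on low counts and a robust dispersion gave 471, 431 and 430 genes. Leaving out each library gave 0 to 1120 genes, with 0 to 441 higher and 0 to 679 lower. The interaction of fiber and NCG had 0 genes by edgeR, 184 by DESeq2 and 0 to 346 when a library was left out. The cause of these differences was not tested. Of 1020 list medians under the alternatives, 24 moved by more than the spread between replicates, and 31 of 102 lists had a median that changed sign in at least 1 of them.

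The groups share replicate numbers, and a replicate block lowered the count to 254 genes (80 higher and 174 lower), 245 of them among the 446. Same-numbered H − N and L − N libraries had correlations of deviations of 0.033, -0.098 and 0.0057, and H − N replicates 1 to 3 did not all correlate best with their own number, so the numbers were not taken to pair the libraries. The share of promoters with a motif, and its alternative window, were not run. The libraries held 14369781 to 18549636 counts, so that genes near the floor of 3 counts had little precision.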

Other observations

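Of 13 table entries for genes of pigment cells tested, 5 were lower in H − N, none was higher and 3 had a positive value. This list was put together after the values had been seen, and so carries no test of its own. Without L − N replicate 1 it had 7 lower genes, without H − N replicate 2 or 3 or L − N replicate 2 a single one, and without H − N replicate 1 or L − N replicate 3 none. The 5 were PMEL, GPR143, TRPM1, TSPAN10 and OCA2. GPR143, a receptor of melanosomes, has 2 table entries, of which 1 passed (log2 fold change -4.11 ± 0.67) and the other did not (-1.53 ± 1.04). TRPM1, a channel of melanocytes, was measured at 2.42, 27.6 and 13.1 CPM in L − N and 0.518, 1.39 and 0.897 CPM in H − N (log2 fold change -3.95 ± 0.78 (SE), adjusted p = 0.0258), TSPAN10 at 13.1, 89 and 71.5 CPM in L − N and 8.55, 10.8 and 3.45 CPM in H − N (log2 fold change -2.92 ± 0.62 (SE), adjusted p = 0.0297) and OCA2, a melanosomal anion transporter, at 0.828, 6.90 and 5.84 CPM in L − N and 0.466, 0.416 and 0.483 CPM in H − N (log2 fold change -3.29 ± 0.74 (SE), adjusted p = 0.0339). In each of these 3 genes the L − N libraries were above the H − N libraries. MLANA had a value of -3.15 ± 1.11 that did not pass, and the pigment enzyme genes TYR and DCT had values of 2.21 ± 1.497 and -0.11 ± 0.32 at low levels. MITF, the transcription factor of melanocytes that macrophages and osteoclasts also use, had a value of -0.34 ± 0.24, and GPNMB, a glycoprotein of melanosomes and of macrophage lysosomes, one of -1.18 ± 0.50.

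HDC, the enzyme that makes histamine, was measured at 11.8, 1.94 and 1.81 CPM in L − N and 34, 27.6 and 303 CPM in H − N and did not pass (log2 fold change 4.55 ± 1.24 (SE), adjusted p = 0.0572). Its H − N libraries were all above L − N, with replicate 3 far above the others, while the mast cell markers MS4A2 and KIT had values of -1.01 ± 0.38 and -0.16 ± 0.42.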
